A study of Mus musculus with 24 samples.

Results

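The 10 genes described here encode receptors for purine nucleotides, adenosine and cannabinoids on mouse macrophages: P2rx4, P2rx7, P2ry2, P2ry6, P2ry13, P2ry14, Adora2a, Adora2b, Adora3 and Cnr2. They were chosen by name from a table of 55357 genes, and all 10 had enough counts to be tested among 14985 genes. The series measured RNA in bone marrow-derived macrophages, which are marrow cells grown in medium with 10% supernatant of L929 cells as a source of the growth factor M-CSF. The mice were wild-type C57BL/6J animals of 8 to 12 weeks. Cells received 100 nM dexamethasone together with 100 ng LPS (Dex+LPS), the same LPS alone (LPS), the same dexamethasone alone (Dex) or neither agent (untreated), each for 24 h or for 4 h. Every one of these 8 groups had 3 libraries. Dexamethasone is a synthetic glucocorticoid, and LPS is a bacterial cell wall component sensed by the receptor TLR4. The labels give the mass of LPS without a volume and do not say in which order the agents were added. They do not say either whether the 3 libraries of a group came from separate mice or cultures, so the p-values measure the spread between these libraries.

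ATP, ADP, UTP, UDP and UDP-sugars leave damaged or activated cells and act on the P2X and the P2Y family of surface receptors. P2X receptors, here P2rx4 and P2rx7, are cation channels that ATP opens, and P2X7 needs high ATP and is known in macrophages for the potassium efflux that activates the NLRP3 inflammasome. P2Y receptors signal through G proteins: P2ry2 (ATP and UTP) and P2ry6 (UDP) through Gq and calcium, and P2ry13 (ADP) and P2ry14 (UDP-sugars) through Gi, which lowers cyclic AMP. Enzymes on the cell surface turn nucleotides into adenosine, whose receptors Adora2a and Adora2b raise cyclic AMP through Gs while Adora3 couples to Gi. Cnr2, the cannabinoid receptor of immune cells, also couples to Gi and binds lipids such as anandamide.

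Libraries held 18326206 to 27908164 counts. All 8 macrophage markers were detected in every group, with summed levels of 16736 to 52334 CPM (counts scaled to a common library size with edgeR's TMM factors). Fkbp5, a textbook glucocorticoid target, averaged 801 CPM in Dex+LPS and 7.35 CPM in LPS cells at 24 h, and 531 CPM in Dex+LPS and 38.5 CPM in LPS cells at 4 h. Tnf, a textbook LPS target, averaged 64 CPM in LPS and 17.6 CPM in untreated cells at 24 h, and 2019 CPM in LPS and 35.6 CPM in untreated cells at 4 h. Summed markers of other cell types ran over all groups from 0.881 to 156 CPM for neutrophils, 10.9 to 179 CPM for dendritic cells, 2.19 to 151 CPM for B cells, 0 to 1.22 CPM for T and NK cells, 0.229 to 11.6 CPM for mast cells and basophils and 0.672 to 8.42 CPM for fibroblasts and endothelium. The scaling matters for the LPS effects: with library sizes alone in place of TMM, the median log2 fold change of all genes shifted by -0.77 for LPS against untreated cells at 4 h and by -0.54 for Dex+LPS against Dex cells at 4 h. The shift was -0.20 and -0.21 for the same comparisons at 24 h, 0.22 for Dex+LPS against LPS cells at 4 h and 0.04 in size or less for the other treatment comparisons. In bulk RNA, fewer cells of a type and less RNA per cell cannot be told apart.

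LPS changed nearly the whole set of receptors, and in both directions. The adenosine receptors Adora2a, Adora2b and Adora3 and the P2Y receptors P2ry2, P2ry13 and P2ry14 were higher with LPS at both times, while P2rx7, P2ry6 and Cnr2 were lower at both times. The exception to scaling is P2ry13 at 4 h, which showed no rise with library sizes alone. At 24 h, 6 members were higher and 3 lower in LPS than in untreated cells at an adjusted p under 0.05 (edgeR quasi-likelihood test, Benjamini-Hochberg over all genes tested), while 29.7% of the genes tested were higher and 30.6% lower. At 4 h, 7 members were higher and 3 lower, against 34.2% and 38.8% of all genes. The 3 lower members at either time lie close to the share of all genes, and the 6 or 7 higher ones lie above it. The members' median log2 fold change was 1.37 at 24 h and 1.78 at 4 h, beside -0.02 and -0.07 over all genes. Dex+LPS against Dex cells gave 5 higher and 4 lower at 24 h, beside 29.6% and 28.7% of all genes, and 7 higher and 3 lower at 4 h, beside 34% and 35.6%. The median log2 fold change of the members was then 0.46 at 24 h and 1.08 at 4 h, beside -0.01 and -0.03 for all genes. The split of all calls depends on the scaling: genes higher in LPS made up 49.2% of the calls at 24 h with TMM and 32.9% with library sizes alone, and 46.8% and 19.9% at 4 h. For Dex+LPS against Dex cells the same shares were 50.7% and 32.6% at 24 h and 48.9% and 24.0% at 4 h. Neutrophil markers, of which 7 of 8 were tested, summed at 4 h to 78.8 to 122 CPM in Dex+LPS, 110 to 156 CPM in LPS, 29.7 to 39.6 CPM in Dex and 38.6 to 53.7 CPM in untreated cells. At 24 h they summed to 17.4 to 23.5 CPM in Dex+LPS, 8.88 to 10.8 CPM in LPS, 0.881 to 2.4 CPM in Dex and 2.78 to 3.49 CPM in untreated cells. S100a8 held 18.6 CPM of the mean sum of 20.1 CPM in Dex+LPS cells at 24 h. It was higher there than in LPS cells (log2 fold change 1.49 ± 0.16, adjusted p = 3.5e-09), while Camp was lower (-2.48 ± 0.49, adjusted p = 6.9e-05). S100a9, Ngp, Mpo, Elane and Cxcr2 were not called in that comparison. Ly6g was at 0 in every group except LPS cells at both times and Dex+LPS cells at 24 h, Cxcr2 and Camp were at 0 in Dex cells at 24 h, and the part of such cells in the LPS effects was not tested.

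Dexamethasone on top of LPS left 3 receptors higher at both times: P2ry13, Adora2a and Cnr2. P2rx4, P2rx7, P2ry2, P2ry6, P2ry14 and Adora2b were lower in Dex+LPS than in LPS cells at both times, Adora2b at 4 h and P2rx7 at 24 h not with library sizes alone. At 24 h, 3 members were higher and 6 lower, beside 21% and 22.6% of all genes, with a median log2 fold change of -0.18 for the members and 0.00 for all genes. At 4 h, 3 members were higher and 7 lower, beside 23.9% and 25.4%, with medians of -0.67 and -0.00. Genes higher in Dex+LPS than in LPS cells at 4 h made up 48.5% of all calls with TMM and 71.6% with library sizes alone. Without LPS, fewer members passed: 3 higher and 3 lower in Dex than in untreated cells at 24 h, beside 21.9% and 26.5%, and 2 higher and 4 lower at 4 h, beside 17.6% and 23.7%. The members' medians were -0.06 at 24 h and -0.22 at 4 h, beside -0.00 and -0.04 for all genes. The counts without LPS at 24 h lie close to the shares of all genes. Comparisons that share a group, such as LPS against untreated and Dex+LPS against LPS, are not independent of each other.

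**Figure D1:**
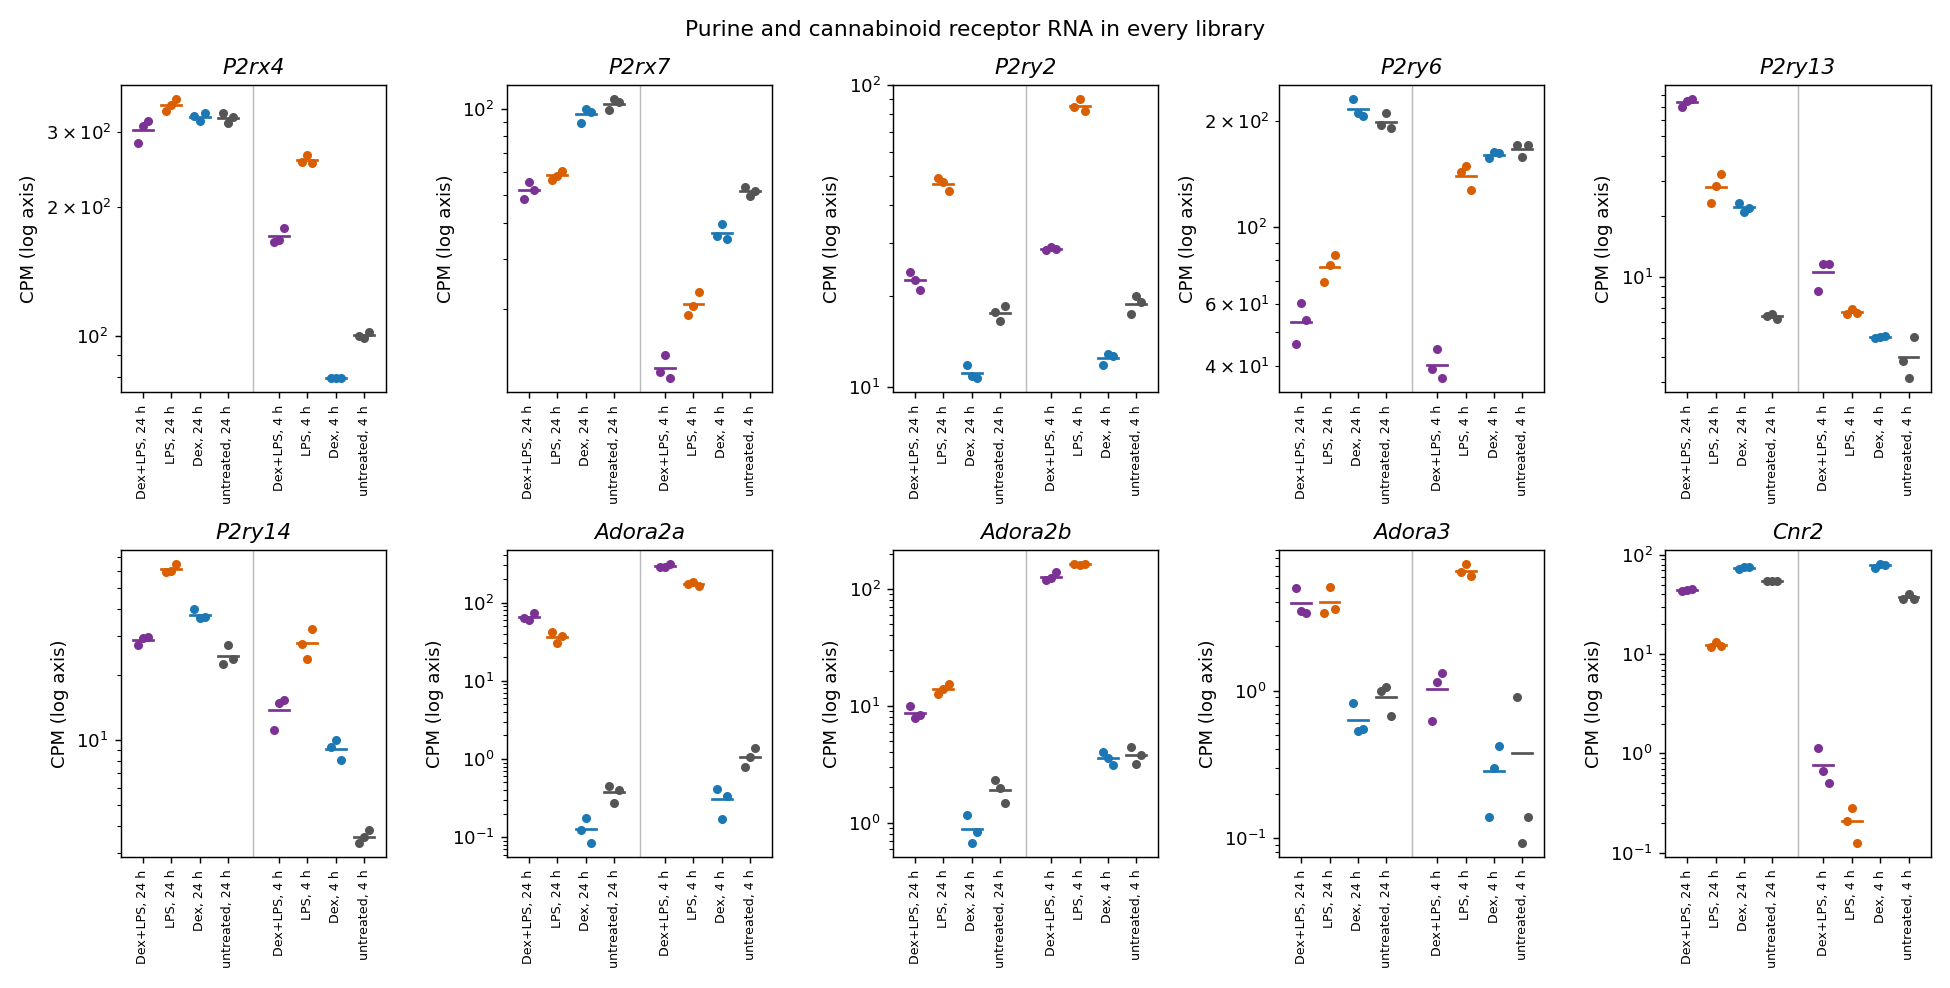
Level of each receptor's RNA in CPM (log axis) in every library (points) with the mean of 3 libraries (lines), by treatment at 24 h and at 4 h. The axes differ between genes: Adora2a spans group means of 294 to 0.129 CPM, while P2rx4 stays between 347 and 79.6 CPM.

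**Figure D2:**
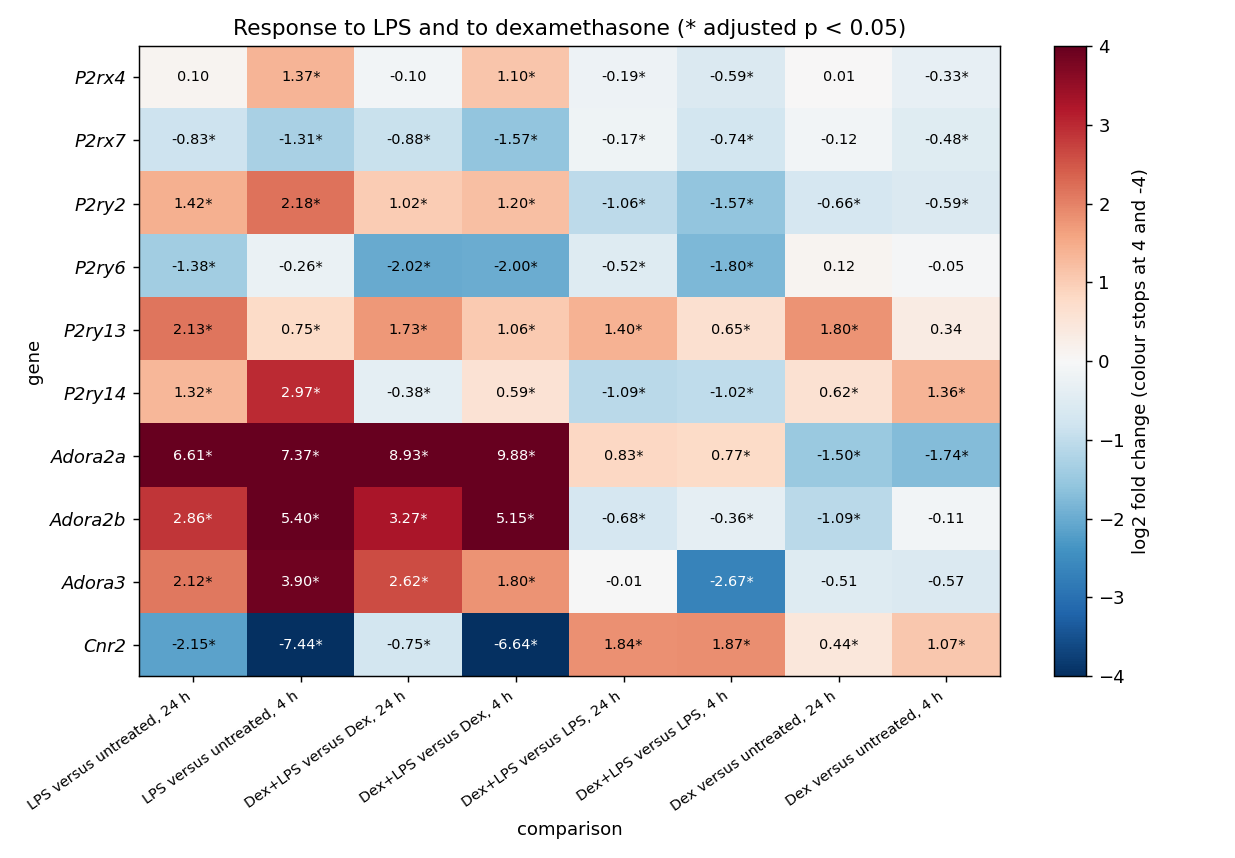
Log2 fold change of each receptor (y axis) in the 8 treatment comparisons (x axis), with colour ending at 4 and -4 and an asterisk at an adjusted p under 0.05. Adora2a has the largest rise with LPS (9.88 in Dex+LPS against Dex cells at 4 h, and 7.37 in LPS against untreated cells at 4 h) and Cnr2 the largest fall (-7.44 in LPS against untreated cells at 4 h).

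P2rx4, an ATP-gated channel found at the surface and in lysosomes, rose with LPS at 4 h and, in untreated cells, with time. P2rx4 at 24 h had 283, 310 and 319 CPM in Dex+LPS cells, against 336, 347 and 359 CPM in LPS cells. Without LPS, P2rx4 at 24 h had 327, 318 and 333 CPM in Dex cells, against 333, 315 and 326 CPM in untreated cells. The Dex+LPS libraries lay below all LPS libraries, while Dex and untreated libraries overlapped. P2rx4 at 4 h had 166, 168 and 179 CPM in Dex+LPS cells, against 256, 265 and 254 CPM in LPS cells. Without LPS, P2rx4 at 4 h had 79.4, 79.6 and 79.7 CPM in Dex cells, against 99.6, 98.9 and 102 CPM in untreated cells. None of the 4 groups at 4 h overlapped. LPS raised P2rx4 2.58-fold at 4 h (log2 fold change 1.37 ± 0.05, adjusted p = 4.6e-24), and at 24 h the difference was 0.10 ± 0.05 with an adjusted p of 0.075. That value passed the threshold under DESeq2 (0.11, adjusted p = 0.023) and without LPS library 1 (0.12, adjusted p = 0.048). Dex+LPS cells had less P2rx4 than LPS cells at 24 h (log2 fold change -0.19 ± 0.05, adjusted p = 0.0011) and at 4 h (log2 fold change -0.59 ± 0.05, adjusted p = 8.5e-13). Dex cells had less than untreated cells at 4 h (log2 fold change -0.33 ± 0.05, adjusted p = 1.1e-06). With library sizes alone, Dex+LPS cells at 24 h also had less than Dex cells (-0.31, against -0.10 with TMM). In untreated cells P2rx4 was 3.24-fold higher at 24 h than at 4 h (log2 fold change 1.70 ± 0.05, adjusted p = 1.7e-25).

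P2rx7, the high-threshold ATP channel of the inflammasome pathway, was lower with LPS at both times. P2rx7 at 24 h had 48.4, 55.6 and 51.9 CPM in Dex+LPS cells, against 56.6, 58.2 and 60.8 CPM in LPS cells. Without LPS, P2rx7 at 24 h had 88.7, 100 and 97.6 CPM in Dex cells, against 98.9, 108 and 105 CPM in untreated cells. Both groups without LPS lay above both groups with LPS, and Dex and untreated libraries overlapped. P2rx7 at 4 h had 12.1, 13.9 and 11.5 CPM in Dex+LPS cells, against 19.1, 20.6 and 22.9 CPM in LPS cells. Without LPS, P2rx7 at 4 h had 36.1, 39.6 and 35.2 CPM in Dex cells, against 53.5, 49.4 and 51.7 CPM in untreated cells. The 4 groups at 4 h did not overlap, with Dex+LPS the lowest of all 8 groups. LPS lowered P2rx7 1.77-fold at 24 h (log2 fold change -0.83 ± 0.07, adjusted p = 2.1e-13) and 2.48-fold at 4 h (log2 fold change -1.31 ± 0.08, adjusted p = 9.0e-18). Dex+LPS cells had less than LPS cells at 4 h (log2 fold change -0.74 ± 0.09, adjusted p = 8.5e-09). At 24 h this difference was -0.17 ± 0.07 with an adjusted p of 0.044, and it missed the threshold under DESeq2 (adjusted p = 0.11), with its size factors, with library sizes alone, with no filter, and without LPS library 2 or 3 or Dex+LPS library 1 or 3 (log2 -0.17 to -0.12, adjusted p = 0.077 to 0.23). Dex cells had less than untreated cells at 4 h (log2 fold change -0.48 ± 0.07, adjusted p = 4.8e-07), and at 24 h the difference was -0.12 ± 0.06 with an adjusted p of 0.13. Untreated cells had 2.01-fold more P2rx7 at 24 h than at 4 h (log2 fold change 1.01 ± 0.07, adjusted p = 1.7e-15). Of the 5970 exon bases of P2rx7, 119 (1.99%) belong also to Mir8115, and reads there were not counted for either gene.

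P2ry2, the receptor for ATP and UTP, rose with LPS, and dexamethasone lowered it with and without LPS. P2ry2 at 24 h had 24.1, 22.7 and 21 CPM in Dex+LPS cells, against 49.2, 47.6 and 44.5 CPM in LPS cells. Without LPS, P2ry2 at 24 h had 11.8, 10.9 and 10.7 CPM in Dex cells, against 17.8, 16.6 and 18.5 CPM in untreated cells. P2ry2 at 4 h had 28.5, 29.1 and 28.7 CPM in Dex+LPS cells, against 84.4, 90 and 82.1 CPM in LPS cells. Without LPS, P2ry2 at 4 h had 11.8, 12.9 and 12.7 CPM in Dex cells, against 17.5, 20 and 19.1 CPM in untreated cells. At both times the groups ran in the order LPS, Dex+LPS, untreated and Dex with no overlap between neighbours. LPS raised P2ry2 2.67-fold at 24 h (log2 fold change 1.42 ± 0.07, adjusted p = 9.7e-19) and 4.54-fold at 4 h (log2 fold change 2.18 ± 0.07, adjusted p = 3.7e-25). It was 2.08-fold lower in Dex+LPS than in LPS cells at 24 h (log2 fold change -1.06 ± 0.07, adjusted p = 1.1e-14) and 2.97-fold lower at 4 h (log2 fold change -1.57 ± 0.07, adjusted p = 7.2e-20). Without LPS, Dex cells had 1.58-fold less than untreated cells at 24 h (log2 fold change -0.66 ± 0.08, adjusted p = 1.9e-08) and 1.51-fold less at 4 h (log2 fold change -0.59 ± 0.08, adjusted p = 1.3e-07). P2ry2 was the member for which time in untreated cells made no called difference (-0.10 ± 0.08 with an adjusted p of 0.29).

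P2ry6, the UDP receptor, had its lowest levels where both agents were present. P2ry6 at 24 h had 46, 60.4 and 54 CPM in Dex+LPS cells, against 69.3, 77.6 and 82.7 CPM in LPS cells. Without LPS, P2ry6 at 24 h had 232, 211 and 207 CPM in Dex cells, against 195, 212 and 192 CPM in untreated cells. The groups with LPS lay below those without it, and Dex and untreated libraries overlapped. P2ry6 at 4 h had 39.1, 44.7 and 36.8 CPM in Dex+LPS cells, against 143, 149 and 127 CPM in LPS cells. Without LPS, P2ry6 at 4 h had 157, 163 and 162 CPM in Dex cells, against 171, 158 and 171 CPM in untreated cells. At 4 h the LPS libraries lay just under the untreated ones, and the Dex+LPS libraries lay far below all others. The fall with LPS was 2.61-fold at 24 h (log2 fold change -1.38 ± 0.08, adjusted p = 1.8e-15) and 1.19-fold at 4 h (log2 fold change -0.26 ± 0.08, adjusted p = 0.0041). P2ry6 was 1.43-fold lower in Dex+LPS than in LPS cells at 24 h (log2 fold change -0.52 ± 0.08, adjusted p = 6.4e-06) and 3.47-fold lower at 4 h (log2 fold change -1.80 ± 0.08, adjusted p = 6.3e-17). In the absence of LPS the dexamethasone effect was 0.12 ± 0.08 with an adjusted p of 0.21 at 24 h and -0.05 ± 0.08 with an adjusted p of 0.65 at 4 h. The value at 24 h passed the threshold when only these groups were fitted (0.14, adjusted p = 0.038).

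P2ry13 and P2ry14, both receptors that couple to Gi, lie next to each other on chromosome 3 together with P2ry12. In the coordinates of the deposited table (annotation GENCODE M29), P2ry13 covers chr3:59115313-59118303 and P2ry14 chr3:59021276-59061039, both on the minus strand and inside the span of Med12l on the plus strand, with no shared exon. Med12l had 1093 counts over the 24 libraries, against 9534 for P2ry13 and 12901 for P2ry14, and the counting did not use strand. The promoter windows below are shown because dexamethasone moved these neighbours in opposite directions in the presence of LPS. They come from RefSeq (build GRCm38.p6, minus strand), run from 250 bases before to 50 after the annotated start, and are written 5′ to 3′ with matches to a glucocorticoid receptor half-site (AGAACA) or an AP-1 site (TGANTCA) in capitals.
P2ry13, chr3:59210833-59211132: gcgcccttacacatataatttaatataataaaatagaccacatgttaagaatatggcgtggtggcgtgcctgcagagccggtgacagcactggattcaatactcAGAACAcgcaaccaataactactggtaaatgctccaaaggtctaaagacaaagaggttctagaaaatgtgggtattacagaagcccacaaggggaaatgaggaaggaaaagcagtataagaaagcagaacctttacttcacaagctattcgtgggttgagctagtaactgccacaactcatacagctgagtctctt
P2ry14 upstream start, chr3:59153443-59153742: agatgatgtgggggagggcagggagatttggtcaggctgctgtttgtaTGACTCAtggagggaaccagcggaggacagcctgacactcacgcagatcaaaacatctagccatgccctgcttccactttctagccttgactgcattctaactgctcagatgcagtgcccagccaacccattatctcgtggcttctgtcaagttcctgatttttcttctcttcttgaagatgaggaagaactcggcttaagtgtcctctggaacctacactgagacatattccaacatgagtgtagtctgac
P2ry14 downstream start, chr3:59131279-59131578: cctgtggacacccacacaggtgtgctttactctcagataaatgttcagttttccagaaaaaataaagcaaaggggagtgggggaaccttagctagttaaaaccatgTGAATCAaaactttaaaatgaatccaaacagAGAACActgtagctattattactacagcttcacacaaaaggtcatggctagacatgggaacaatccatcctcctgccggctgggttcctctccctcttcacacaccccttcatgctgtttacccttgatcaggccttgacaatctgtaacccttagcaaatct

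The P2ry13 window holds AGAACA at -146 to -141 from the start. The printed P2ry14 windows hold TGACTCA at -202 to -196 in the upstream one, and TGAATCA at -144 to -138 and AGAACA at -113 to -108 in the downstream one. P2ry14 also has windows at chr3:59131069-59131368 and chr3:59130713-59131012, not printed here. Both start further downstream, and neither holds a match to either motif. Both motifs are common: on either strand, 19% of 32851 RefSeq promoter windows hold AGAACA and 7.81% hold TGANTCA. Windows were given for 8 of the 10 members (14 windows in all), with none for P2ry6 and Adora2a. Elsewhere among the members, TGANTCA matched at -249 to -243 in P2rx7 (TGAGTCA) and at -98 to -92 in Adora3 (TGACTCA). The same search on both strands found in no member window the palindrome of AGAACA and TGTTCT 3 bases apart (0.00913% of all windows), the cyclic AMP element TGACGTCA (1.79%), GAAANNGAAA (an interferon-stimulated element, 3.44%) or the NF-kB site (8.46%). TGANTCA reads the same on both strands, and none of the matches in a member window overlapped a match to another motif. A match describes letters in these windows and no match says only that the letters are not in them.

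P2ry13, the ADP receptor, rose with LPS and rose further with dexamethasone, and reached its highest level in Dex+LPS cells at 24 h. P2ry13 at 24 h had 69.5, 75.2 and 76.6 CPM in Dex+LPS cells, against 23.2, 28.4 and 32.4 CPM in LPS cells. Without LPS, P2ry13 at 24 h had 23.4, 21.1 and 22 CPM in Dex cells, against 6.38, 6.53 and 6.22 CPM in untreated cells. All Dex+LPS libraries lay far above the rest, LPS and Dex libraries overlapped, and untreated libraries were the lowest. P2ry13 at 4 h had 8.57, 11.6 and 11.6 CPM in Dex+LPS cells, against 6.54, 6.96 and 6.63 CPM in LPS cells. Without LPS, P2ry13 at 4 h had 5, 5.06 and 5.08 CPM in Dex cells, against 3.84, 3.14 and 5.06 CPM in untreated cells. At 4 h the levels were lower throughout, and Dex and untreated libraries overlapped. The rise with dexamethasone at 24 h was 2.64-fold in the presence of LPS (log2 fold change 1.40 ± 0.10, adjusted p = 3.1e-14) and 3.47-fold in its absence (log2 fold change 1.80 ± 0.12, adjusted p = 3.7e-15). At 4 h it was 1.57-fold in the presence of LPS (log2 fold change 0.65 ± 0.14, adjusted p = 1.5e-04), and without LPS the value was 0.34 ± 0.15 with an adjusted p of 0.077. Leaving out untreated library 3 at 4 h brought this last value past the threshold (0.51, adjusted p = 0.011). LPS alone gave 4.38-fold more P2ry13 than untreated cells at 24 h (log2 fold change 2.13 ± 0.12, adjusted p = 8.9e-18) and 1.68-fold more at 4 h (log2 fold change 0.75 ± 0.15, adjusted p = 4.3e-05). The rise at 4 h depends on the scaling, with -0.02 and an adjusted p of 0.89 under library sizes alone.

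P2ry14, the UDP-sugar receptor, rose with either agent alone, and the combination stayed below LPS alone. P2ry14 at 24 h had 27.4, 29.6 and 29.9 CPM in Dex+LPS cells, against 59.2, 60.1 and 65 CPM in LPS cells. Without LPS, P2ry14 at 24 h had 40, 36.6 and 36.8 CPM in Dex cells, against 22.4, 27.4 and 23.7 CPM in untreated cells. LPS libraries were the highest, Dex libraries came next, and Dex+LPS and untreated libraries met at 27.4 CPM. P2ry14 at 4 h had 11.1, 14.8 and 15.3 CPM in Dex+LPS cells, against 27.8, 23.7 and 32.3 CPM in LPS cells. Without LPS, P2ry14 at 4 h had 9.25, 10 and 8.08 CPM in Dex cells, against 3.34, 3.55 and 3.82 CPM in untreated cells. None of the 4 groups at 4 h overlapped. P2ry14 was 2.12-fold lower in Dex+LPS than in LPS cells at 24 h (log2 fold change -1.09 ± 0.10, adjusted p = 6.0e-12) and 2.03-fold lower at 4 h (log2 fold change -1.02 ± 0.11, adjusted p = 5.6e-10). Without LPS the dexamethasone effect had the other sign, with 1.54-fold more in Dex than in untreated cells at 24 h (log2 fold change 0.62 ± 0.10, adjusted p = 1.4e-06) and 2.57-fold more at 4 h (log2 fold change 1.36 ± 0.14, adjusted p = 2.7e-10). LPS raised P2ry14 2.5-fold at 24 h (log2 fold change 1.32 ± 0.10, adjusted p = 1.1e-14) and 7.84-fold at 4 h (log2 fold change 2.97 ± 0.13, adjusted p = 7.6e-22). Dex+LPS cells had less than Dex cells at 24 h (log2 fold change -0.38 ± 0.10, adjusted p = 9.3e-04) and more at 4 h (log2 fold change 0.59 ± 0.12, adjusted p = 4.7e-05), the second not with library sizes alone (0.05, adjusted p = 0.72). The dendritic cell markers, of which all 8 were tested, summed to 10.9 to 14.2 CPM in Dex+LPS and 17.3 to 20.4 CPM in LPS cells at 24 h, and to 19.7 to 24 CPM in Dex and 128 to 179 CPM in untreated cells. At 4 h they summed to 35.4 to 46 CPM in Dex+LPS, 53.5 to 76.5 CPM in LPS, 32 to 37.6 CPM in Dex and 24.9 to 35.3 CPM in untreated cells. Xcr1 was at 0 in Dex cells at 4 h and Ccr7 in Dex cells at 24 h, and the part of such cells in the P2ry13 and P2ry14 values was not tested.

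Adora2a, the Gs-coupled adenosine receptor best known for damping macrophage inflammation, was near the detection limit without LPS, rose with LPS at both times, and was higher still with dexamethasone on top. Adora2a at 24 h had 63.7, 59.8 and 72.4 CPM in Dex+LPS cells, against 42.3, 30.7 and 37.3 CPM in LPS cells. Without LPS, Adora2a at 24 h had 0.124, 0.178 and 0.084 CPM in Dex cells (counts of 3, 4 and 2), against 0.453, 0.274 and 0.403 CPM in untreated cells (counts of 10, 7 and 9). Every library with LPS exceeded every library without it by far, and Dex+LPS libraries lay above all LPS libraries. Adora2a at 4 h had 285, 282 and 314 CPM in Dex+LPS cells, against 173, 183 and 163 CPM in LPS cells. Without LPS, Adora2a at 4 h had 0.416, 0.17 and 0.338 CPM in Dex cells, against 0.78, 1.06 and 1.38 CPM in untreated cells. At both times no treatment group overlapped another. LPS raised Adora2a 97.6-fold at 24 h (log2 fold change 6.61 ± 0.18, adjusted p = 2.6e-24) and 166-fold at 4 h (log2 fold change 7.37 ± 0.14, adjusted p = 1.4e-29). Adora2a was 1.77-fold higher in Dex+LPS than in LPS cells at 24 h (log2 fold change 0.83 ± 0.09, adjusted p = 2.0e-09) and 1.7-fold higher at 4 h (log2 fold change 0.77 ± 0.08, adjusted p = 8.3e-10). Without LPS the dexamethasone effect had the other sign at few counts, at 24 h (log2 fold change -1.50 ± 0.60, adjusted p = 0.041) and at 4 h (log2 fold change -1.74 ± 0.38, adjusted p = 4.0e-04). The call at 24 h was lost without untreated library 1 or 3 or Dex library 1 or 3 (log2 -1.48 to -1.27, adjusted p = 0.088 to 0.13). In untreated cells Adora2a was lower at 24 h than at 4 h (log2 fold change -1.47 ± 0.37, adjusted p = 8.9e-04).

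Adora2b, the Gs-coupled receptor with low affinity for adenosine, also rose with LPS, while Dex+LPS cells had less of it than LPS cells. Adora2b at 24 h had 9.9, 7.92 and 8.31 CPM in Dex+LPS cells, against 12.6, 14 and 15.3 CPM in LPS cells. Without LPS, Adora2b at 24 h had 1.16, 0.669 and 0.84 CPM in Dex cells, against 2.31, 1.96 and 1.48 CPM in untreated cells. At 24 h the 4 groups did not overlap. Adora2b at 4 h had 120, 123 and 138 CPM in Dex+LPS cells, against 164, 161 and 164 CPM in LPS cells. Without LPS, Adora2b at 4 h had 4.02, 3.57 and 3.13 CPM in Dex cells, against 4.4, 3.18 and 3.77 CPM in untreated cells. At 4 h Dex and untreated libraries overlapped, and Dex+LPS libraries lay below all LPS libraries. LPS raised Adora2b 7.26-fold at 24 h (log2 fold change 2.86 ± 0.14, adjusted p = 1.0e-19) and 42.3-fold at 4 h (log2 fold change 5.40 ± 0.11, adjusted p = 2.1e-32). Adora2b was 1.6-fold lower in Dex+LPS than in LPS cells at 24 h (log2 fold change -0.68 ± 0.11, adjusted p = 3.2e-06) and 1.28-fold lower at 4 h (log2 fold change -0.36 ± 0.08, adjusted p = 1.5e-04). The value at 4 h was -0.14 with an adjusted p of 0.13 under library sizes alone. Dex cells had 2.13-fold less than untreated cells at 24 h (log2 fold change -1.09 ± 0.23, adjusted p = 1.5e-04), and at 4 h the value was -0.11 ± 0.15 with an adjusted p of 0.6.

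Adora3, the Gi-coupled adenosine receptor, rose with LPS and had few counts throughout. Adora3 at 24 h had 5.03, 3.47 and 3.38 CPM in Dex+LPS cells, against 3.4, 5.05 and 3.57 CPM in LPS cells. Without LPS, Adora3 at 24 h had 0.829, 0.535 and 0.546 CPM in Dex cells, against 0.996, 1.06 and 0.672 CPM in untreated cells. Libraries with and without LPS did not overlap at 24 h, while Dex+LPS overlapped LPS libraries and Dex overlapped untreated ones. Adora3 at 4 h had 0.623, 1.15 and 1.33 CPM in Dex+LPS cells, against 6.38, 7.31 and 6 CPM in LPS cells. Without LPS, Adora3 at 4 h had 0.139, 0.298 and 0.423 CPM in Dex cells, against 0.905, 0.0922 and 0.138 CPM in untreated cells. Untreated library 1 at 4 h stood apart, with counts of 29, 2 and 3 in the 3 libraries. LPS raised Adora3 at 24 h (log2 fold change 2.12 ± 0.35, adjusted p = 2.5e-06) and at 4 h (log2 fold change 3.90 ± 0.37, adjusted p = 2.3e-11), and the value at 4 h was 5.76 without that library. Adora3 was 6.37-fold lower in Dex+LPS than in LPS cells at 4 h (log2 fold change -2.67 ± 0.35, adjusted p = 6.2e-08), while at 24 h the difference was -0.01 ± 0.30 with an adjusted p of 0.98. Dex against untreated cells gave -0.51 ± 0.44 with an adjusted p of 0.36 at 24 h and -0.57 ± 0.57 with an adjusted p of 0.46 at 4 h, the second turning to 1.29 (adjusted p = 0.17) without that library. The difference between 24 h and 4 h in untreated cells (log2 fold change 1.06 ± 0.46, adjusted p = 0.045) became 2.92 without that library. It missed the threshold with library sizes alone (1.01, adjusted p = 0.052), with only these groups fitted (1.09, adjusted p = 0.12) and without untreated library 2 or 3 at 4 h or 1 or 2 at 24 h (log2 0.65 to 1.00, adjusted p = 0.1 to 0.21). Of its 3729 exon bases, 109 (2.92%) belong also to Tmigd3 and 670 (18%) to a gene without a symbol, and reads there were not counted. Mast cells also carry this receptor in rodents. The mast cell and basophil markers, of which 3 of 6 were tested, summed at 4 h to 1.77 to 5.15 CPM in Dex+LPS, 5.88 to 6.75 CPM in LPS, 0.555 to 1.1 CPM in Dex and 2.81 to 3.37 CPM in untreated cells, and their part in the values at 4 h was not tested. At 24 h they summed to 0.26 to 0.367 CPM in Dex+LPS, 0.229 to 1.39 CPM in LPS, 0.332 to 1.03 CPM in Dex and 10.4 to 11.6 CPM in untreated cells. Mcpt4 was at 0 in every group. In untreated cells at 24 h, Kit held 10.2 CPM of the mean sum of 10.9 CPM. Kit and Cpa3 were lower in LPS than in untreated cells at 24 h (log2 fold change -4.18 ± 0.35 and -3.24 ± 0.68, adjusted p = 1.6e-12 and 9.1e-05). Ms4a2 was not called there (1.05 ± 1.52, adjusted p = 0.58). The part of such cells in the Adora3 values at 24 h was not tested either.

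Cnr2, the cannabinoid receptor, fell with LPS and rose with dexamethasone, with and without LPS, at both times. Cnr2 at 24 h had 43.4, 44.2 and 45.5 CPM in Dex+LPS cells, against 11.7, 13.3 and 12.2 CPM in LPS cells. Without LPS, Cnr2 at 24 h had 72.6, 74.7 and 75.9 CPM in Dex cells, against 55.2, 54.1 and 55 CPM in untreated cells. Dex+LPS cells at 24 h thus lay between LPS and untreated cells, and none of the 4 groups overlapped. Cnr2 at 4 h had 1.14, 0.666 and 0.498 CPM in Dex+LPS cells, against 0.209, 0.285 and 0.125 CPM in LPS cells (counts of 22, 11 and 9 against 4, 5 and 2). Without LPS, Cnr2 at 4 h had 74.3, 81.6 and 79.9 CPM in Dex cells, against 36.3, 40 and 35.7 CPM in untreated cells. At 4 h both groups with LPS were near 0, with no overlap between groups. LPS lowered Cnr2 4.43-fold at 24 h (log2 fold change -2.15 ± 0.08, adjusted p = 2.1e-23) and 174-fold at 4 h (log2 fold change -7.44 ± 0.17, adjusted p = 1.4e-30). Cnr2 was 3.59-fold higher in Dex+LPS than in LPS cells at 24 h (log2 fold change 1.84 ± 0.08, adjusted p = 1.5e-20) and 3.66-fold higher at 4 h (log2 fold change 1.87 ± 0.39, adjusted p = 1.1e-04). Dex cells had 1.36-fold more than untreated cells at 24 h (log2 fold change 0.44 ± 0.07, adjusted p = 8.6e-07) and 2.11-fold more at 4 h (log2 fold change 1.07 ± 0.07, adjusted p = 9.4e-16). B cells also carry this receptor. The B cell markers, of which 2 of 6 were tested, summed at 24 h to 4.24 to 11.3 CPM in Dex+LPS, 2.19 to 3.67 CPM in LPS, 61.1 to 70.7 CPM in Dex and 131 to 151 CPM in untreated cells. At 4 h they summed to 4.98 to 8.29 CPM in Dex+LPS, 11.2 to 19.7 CPM in LPS, 8.7 to 12.5 CPM in Dex and 20 to 28.7 CPM in untreated cells. In untreated cells at 24 h, Ighm held 136 CPM of the mean sum of 140 CPM. In Dex cells at 24 h it held 64.9 of 66.1 CPM. Cd79b, the other tested marker, was lower in Dex than in untreated cells at 24 h (log2 fold change -1.60 ± 0.32, adjusted p = 5.6e-05). At 4 h Ighm was lower (log2 fold change -1.38 ± 0.25, adjusted p = 2.3e-04) and Cd79b was not called (-0.55 ± 0.31, adjusted p = 0.16). Pax5 was at 0 in Dex cells at 4 h and in Dex+LPS and untreated cells at 24 h, and Ms4a1 was at 0 in Dex+LPS cells at 4 h. The part of B cells in the Cnr2 values was not tested.

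Whether dexamethasone acted differently in the presence of LPS was tested as an interaction, the log2 effect of dexamethasone with LPS minus that without it. At 24 h, 2 of the members had a positive and 5 a negative difference past the threshold, beside 20.5% and 17.7% of all genes. At 4 h, 1 of the members had a positive and 5 a negative difference past the threshold, beside 20.8% and 17.9% of all genes. Genes with a positive difference made up 53.9% of all calls at 4 h with TMM and 77.1% with library sizes alone, which shifted the median of all genes by 0.23. The 5 members with a negative difference at 24 h became 3 with no filter and without untreated library 2, LPS library 3 or Dex+LPS library 1, and with library sizes alone 3 members had a positive difference at 4 h. P2ry14 had a negative difference, -1.71 ± 0.14 with an adjusted p of 6.7e-13 at 24 h and -2.38 ± 0.18 with an adjusted p of 1.5e-13 at 4 h, dexamethasone having raised it alone and lowered it under LPS. P2ry6 had -0.63 ± 0.11 with an adjusted p of 3.2e-05 at 24 h and -1.75 ± 0.11 with an adjusted p of 2.6e-13 at 4 h. P2ry2, lower with dexamethasone in either setting, was lowered more under LPS, with a difference of -0.40 ± 0.11 with an adjusted p of 0.0038 at 24 h and -0.98 ± 0.11 with an adjusted p of 2.4e-09 at 4 h. Adora2a had a positive difference, 2.32 ± 0.61 with an adjusted p of 0.0025 at 24 h and 2.51 ± 0.39 with an adjusted p of 3.4e-06 at 4 h, against groups without LPS that held few counts. Cnr2 had 1.40 ± 0.10 with an adjusted p of 1.1e-13 at 24 h, and 0.80 ± 0.40 with an adjusted p of 0.16 at 4 h.

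Several smaller differences depended on single libraries or on the scaling. P2rx4 had -0.20 ± 0.07 with an adjusted p of 0.016 at 24 h, which missed the threshold with no filter and without untreated library 2, LPS library 3 or Dex+LPS library 1 (log2 -0.18 to -0.15, adjusted p = 0.051 to 0.1). At 4 h P2rx4 had -0.26 ± 0.07 with an adjusted p of 0.0027, and -0.03 with library sizes alone. P2ry13 at 24 h had -0.40 ± 0.16 with an adjusted p of 0.045, which missed the threshold under DESeq2 and with its size factors, with no filter and in every case of a library left out except Dex library 2 and LPS library 1 (log2 -0.41 to -0.28, adjusted p = 0.05 to 0.19). Adora3 at 4 h had -2.10 ± 0.71 with an adjusted p of 0.019. It was -3.96 without untreated library 1, and missed the threshold without Dex library 2 or 3 (-2.08 and -1.71, adjusted p = 0.051 and 0.13). P2rx7 at 4 h had -0.26 ± 0.11 with an adjusted p of 0.069, and passed the threshold under DESeq2 (-0.30, adjusted p = 0.04) and without LPS library 1 or Dex+LPS library 2 (-0.32 and -0.34, adjusted p = 0.032 and 0.025). For Adora2b the interaction was 0.41 ± 0.26 with an adjusted p of 0.22 at 24 h and -0.25 ± 0.17 with an adjusted p of 0.25 at 4 h. P2ry13 at 4 h had 0.32 ± 0.21 with an adjusted p of 0.24, and with library sizes alone P2ry13 and Cnr2 passed at 4 h (0.55 and 1.02, adjusted p = 0.027 and 0.048).

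**Figure D3:**
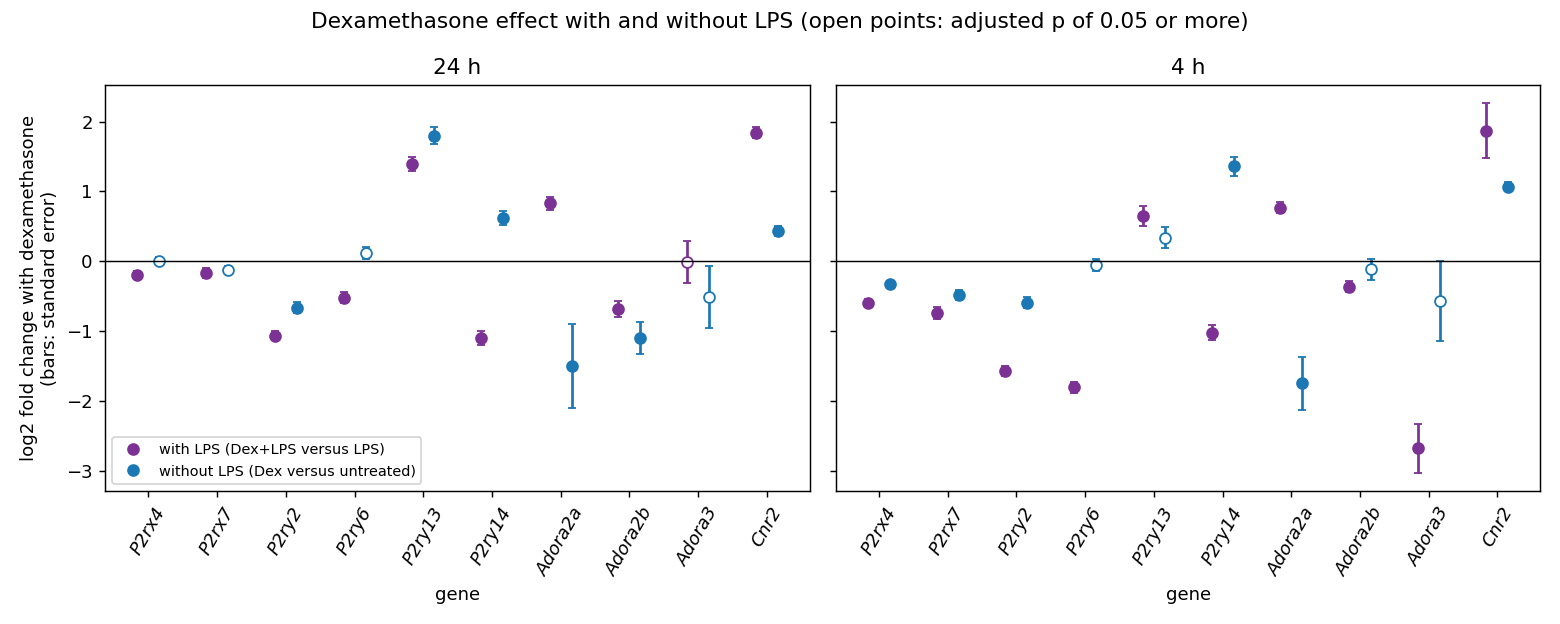
Log2 fold change with dexamethasone (y axis, bars give the standard error) of each receptor with LPS (Dex+LPS against LPS cells) and without LPS (Dex against untreated cells), at 24 h and at 4 h. Filled points have an adjusted p under 0.05. P2ry14 lies on opposite sides of 0 at both times (-1.09 with and 0.62 without LPS at 24 h), as does Adora2a in the other direction (0.83 and -1.50).

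Time changed the receptors even without treatment. In untreated cells 7 members were higher and 2 lower at 24 h than at 4 h, beside 30.6% and 30.4% of all genes, with a median log2 fold change of 0.61 for the members and 0.01 for all genes. Among the members P2ry14 moved most, 6.91-fold higher at 24 h (log2 fold change 2.79 ± 0.13, adjusted p = 3.3e-20), and Adora2b was 2.01-fold lower (log2 fold change -1.0 ± 0.17, adjusted p = 3.0e-06). Cnr2 was 1.47-fold higher (log2 fold change 0.55 ± 0.07, adjusted p = 1.2e-08), P2ry13 1.6-fold (log2 fold change 0.67 ± 0.15, adjusted p = 1.5e-04) and P2ry6 1.2-fold (log2 fold change 0.26 ± 0.08, adjusted p = 0.0038). The labels do not say whether medium was changed or when the 4 h and 24 h cells were plated, so culture age and the hours of the experiment cannot be told apart. Mean marker sums in untreated cells at 24 h and 4 h were 3.18 and 43.8 CPM for neutrophils, and 158 and 29.6 CPM for dendritic cells. They were 140 and 24.3 CPM for B cells (mostly Ighm at 24 h), and 10.9 and 3.01 CPM for mast cells and basophils (mostly Kit at 24 h). For fibroblasts and endothelium they were 1.4 and 3.18 CPM, and for T and NK cells 0.831 and 0.761 CPM. The part of such cells in these time differences was not tested.

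The LPS effect itself differed between the times, taken as the log2 effect at 24 h minus that at 4 h. It was larger (more positive) at 24 h for 3 members and smaller for 6, beside 30.8% and 30.5% of all genes, and genes with a positive difference made up 50.3% of all calls with TMM and 74.9% with library sizes alone, which shifted the median of all genes by 0.57. Cnr2 had the largest positive difference, 5.29 ± 0.24 with an adjusted p of 8.9e-21, its fall being far smaller at 24 h. P2ry13 had 1.38 ± 0.20 with an adjusted p of 1.3e-07 and P2rx7 0.48 ± 0.10 with an adjusted p of 8.8e-05. Adora2b had the largest negative difference, -2.54 ± 0.21 with an adjusted p of 3.0e-13, while Adora2a had -0.76 ± 0.43 with an adjusted p of 0.12, which passed the threshold under DESeq2 (-0.79, adjusted p = 0.04). P2ry14 had -1.65 ± 0.16 with an adjusted p of 3.9e-11, P2rx4 -1.27 ± 0.07 with an adjusted p of 2.7e-18 and P2ry6 -1.13 ± 0.11 with an adjusted p of 3.6e-10. Adora3 had -1.78 ± 0.54 with an adjusted p of 0.005, and -3.64 without untreated library 1 at 4 h. P2ry2 had -0.76 ± 0.10 with an adjusted p of 5.4e-08, and -0.19 (adjusted p = 0.099) with library sizes alone.

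The dexamethasone effect under LPS was more positive at 24 h than at 4 h for 6 members and more negative for 0 by edgeR, beside 19% and 19.8% of all genes. Among the differences below 0, 1 member (Adora2b) had an unadjusted p under 0.05, and DESeq2 also called 0. Genes with a positive difference made up 49.0% of all calls with TMM and 28.7% with library sizes alone, which shifted the median of all genes by -0.19. P2ry6 had 1.28 ± 0.12 with an adjusted p of 4.7e-10, Adora3 2.66 ± 0.46 with an adjusted p of 1.7e-05 and P2ry13 0.75 ± 0.17 with an adjusted p of 5.9e-04, so the loss of P2ry6 and Adora3 with dexamethasone was smaller and the gain of P2ry13 larger at 24 h. Adora2a had 0.06 ± 0.12 with an adjusted p of 0.73 and Cnr2 -0.03 ± 0.22 with an adjusted p of 0.96. P2rx7 had 0.57 ± 0.11 with an adjusted p of 9.7e-05, P2ry2 0.51 ± 0.10 with an adjusted p of 1.1e-04 and P2rx4 0.40 ± 0.07 with an adjusted p of 9.8e-06, all 3 of them lowered less at 24 h, and P2ry14 had -0.06 ± 0.15 with an adjusted p of 0.79. Adora2b had -0.32 ± 0.13 with an adjusted p of 0.058, which passed the threshold with library sizes alone (-0.51), with no filter, with only these groups fitted, and without LPS library 1 at 24 h, Dex+LPS library 1 at 24 h or Dex+LPS library 1 at 4 h (-0.39, -0.42 and -0.36, adjusted p = 0.026, 0.019 and 0.039). Without LPS the dexamethasone effect was more positive at 24 h for 3 members and more negative for 3, beside 13.8% and 16.8% of all genes. P2ry13 led the first with 1.46 ± 0.20 with an adjusted p of 2.4e-07, and Adora2b the second with -0.98 ± 0.28 with an adjusted p of 0.0057. P2ry14 had -0.74 ± 0.17 with an adjusted p of 8.8e-04 and Cnr2 -0.63 ± 0.10 with an adjusted p of 2.0e-06, their gains with dexamethasone being smaller at 24 h. P2rx7 had 0.36 ± 0.10 with an adjusted p of 0.0032 and P2rx4 0.34 ± 0.07 with an adjusted p of 2.0e-04.

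Levels of different receptors can be compared only per exon length (CPM per kb). In untreated cells P2ry6 was the most abundant member at both times, with 69.1 ± 3.79 CPM per kb at 24 h and 57.6 ± 2.62 at 4 h, followed by P2rx4 with 46.2 ± 1.31 and 14.2 ± 0.216. In LPS cells at 4 h the adenosine receptors Adora2b and Adora2a led, with 88.3 ± 1.02 and 56.4 ± 3.24 CPM per kb. In Dex+LPS cells at 4 h their order was the reverse, 95.9 ± 5.79 for Adora2a and 68.8 ± 5.26 for Adora2b. At 24 h P2rx4 was the most abundant member in Dex+LPS cells (43.2 ± 2.66) and in LPS cells (49.4 ± 1.64). P2ry13 came second in Dex+LPS cells at 24 h with 29.2 ± 1.49, while in untreated cells at 24 h it had 2.52 ± 0.0609. Cnr2 had 19.7 ± 0.957 CPM per kb in Dex cells at 4 h, its highest, and 0.0519 ± 0.0202 in LPS cells at 4 h, its lowest. The ratio of the highest to the lowest group mean was 2277 for Adora2a, 380 for Cnr2 and 183 for Adora2b, and between 4.36 (P2rx4) and 22.9 (Adora3) for the other 7.

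**Figure D4:**
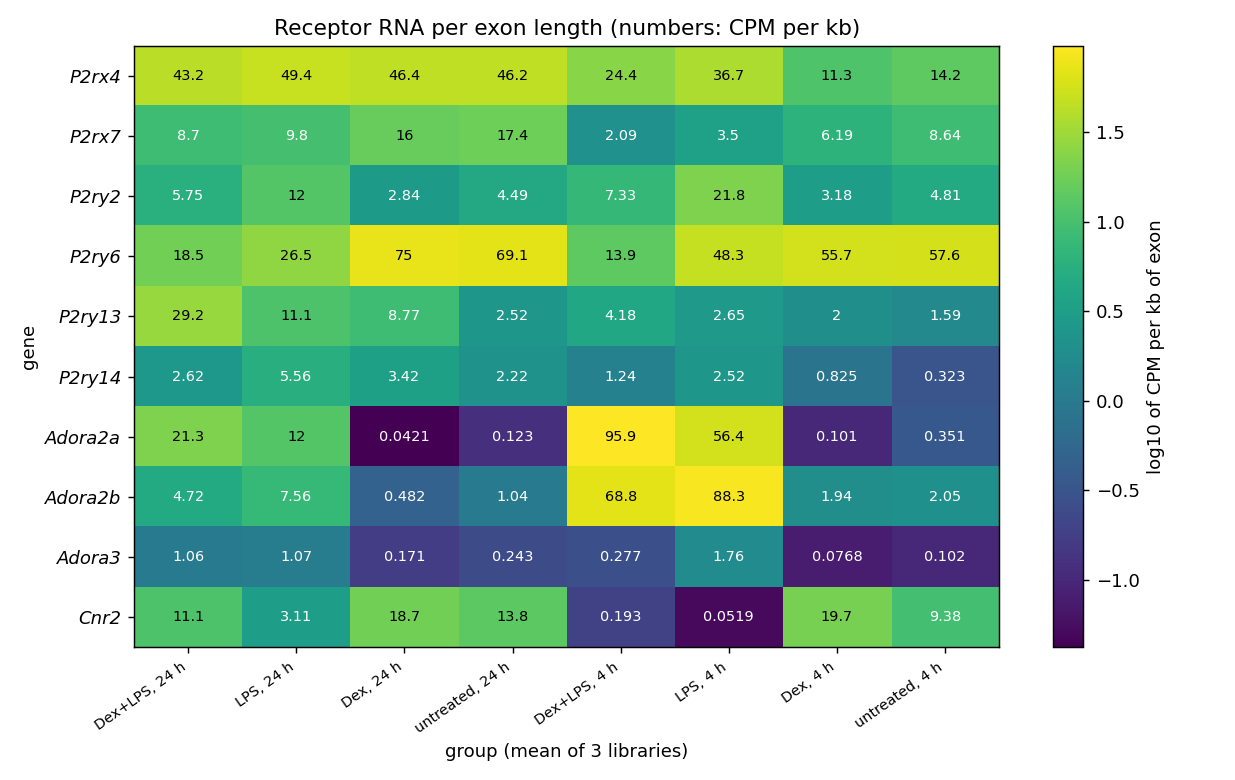
Mean level of each receptor's RNA per exon length (CPM per kb, mean of 3 libraries; colour on a log10 scale) in the 8 groups. P2ry6 leads in all 4 groups without LPS, and Adora2a and Adora2b lead in both groups with LPS at 4 h, with 95.9 and 68.8 CPM per kb in Dex+LPS cells.

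As a description, the genes whose pattern over the 8 group means was most like that of each member were found by Pearson correlation of log2 CPM. The highest values were 0.998 for Adora2b with Mmadhc and 0.996 with Csnk2b, and 0.997 for Adora2a with Fscn1 and 0.995 with Gfi1. P2rx7 was most like Ttyh3 (0.995) and Akr1b10 (0.987), Cnr2 most like Def6 (0.995) and Oxld1 (0.994), and P2ry2 most like Isoc1 (0.991) and Ube2m (0.989). P2ry6 had 0.987 with Cpt1a and 0.967 with Fam84b, and P2rx4 had 0.971 with Ddx17 and 0.965 with Ly9. The lowest of these best matches were those of P2ry13 (Zfp106 at 0.965 and Ndufb9 at 0.961), Adora3 (Samd5 at 0.961 and Flot1 at 0.955) and P2ry14 (Clk3 at 0.950 and Apba1 at 0.947). No member was among the closest matches of another, and with 8 points chosen from 14985 genes high values are found for every member.

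Among related receptors, those for ADP other than P2ry13 also changed. List counts here use TMM and were not recomputed with library sizes alone. They stand beside the shares of all genes called: in LPS against untreated cells 29.7% higher and 30.6% lower at 24 h and 34.2% and 38.8% at 4 h, and in Dex+LPS against LPS cells 21% and 22.6% at 24 h and 23.9% and 25.4% at 4 h. Of 6 other genes listed by a P2Y or adenosine receptor name, whatever their ligand, 4 were tested: P2ry1, P2ry12, P2ry10 and P2ry10b. P2ry4 and Adora1 had 2 counts each over all libraries. With LPS at 4 h the higher ones were P2ry10 and P2ry10b, and P2ry1 and P2ry12 were lower. At 24 h the higher one was P2ry10 (0.247 CPM in LPS and 0.028 CPM in untreated cells), and P2ry1 and P2ry10b were lower. In LPS against untreated cells they gave 1 higher and 2 lower of 4 tested (median log2 -0.78, beside -0.02 for all genes) at 24 h and 2 higher and 2 lower of 4 tested (median log2 -0.26, beside -0.07 for all genes) at 4 h. P2ry1, an ADP receptor coupled to Gq, averaged 1.59 ± 0.272 CPM in LPS and 26.7 ± 1.38 CPM in untreated cells at 24 h (log2 fold change -4.07 ± 0.14, adjusted p = 7.9e-24). P2ry12, the Gi-coupled ADP receptor next to P2ry13, averaged 19.1 ± 3.19 CPM in Dex+LPS and 5.66 ± 1.45 CPM in LPS cells at 24 h (log2 fold change 1.77 ± 0.19, adjusted p = 2.6e-09), and 17.2 ± 1 CPM in Dex and 5.93 ± 1.57 CPM in untreated cells (log2 fold change 1.52 ± 0.18, adjusted p = 2.5e-08). P2ry12 and P2ry13 were thus both higher with dexamethasone at 24 h, with and without LPS. P2ry1 was lower without LPS, with 5.96 ± 0.381 CPM in Dex and 26.7 ± 1.38 CPM in untreated cells at 24 h (log2 fold change -2.16 ± 0.12, adjusted p = 7.6e-18), and higher with it, with 3.8 ± 0.408 CPM in Dex+LPS and 1.59 ± 0.272 CPM in LPS cells (log2 fold change 1.26 ± 0.18, adjusted p = 2.0e-07). In Dex+LPS against LPS cells the list gave 2 higher and 0 lower of 4 tested (median log2 0.61, beside 0.00 for all genes) at 24 h and 1 higher and 3 lower of 4 tested (median log2 -1.15, beside -0.00 for all genes) at 4 h. Of 5 other P2X receptors 2 were tested, P2rx1 and P2rx5, which averaged under 1 CPM in every group. In LPS against untreated cells at 24 h they gave 1 higher and 0 lower of 2 tested (median log2 0.84, beside -0.02 for all genes). The call was P2rx1, with 0.524 CPM in LPS and 0.123 CPM in untreated cells (log2 fold change 1.99 ± 0.87, adjusted p = 0.048). Neither was called in Dex+LPS against LPS cells at either time.

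Among genes that make and remove the ligands, Entpd1 was lower at 24 h and Pnp higher at 4 h in LPS than in untreated cells, and Ada was higher in Dex+LPS than in LPS cells at both times. Of 20 genes for ectonucleotidases and adenosine turnover, LPS against untreated cells gave 4 higher and 6 lower of 14 tested (median log2 -0.20, beside -0.02 for all genes) at 24 h and 4 higher and 8 lower of 14 tested (median log2 -0.70, beside -0.07 for all genes) at 4 h. Entpd1, which hydrolyses ATP and ADP at the cell surface, averaged 9.56 ± 1.15 CPM in LPS and 259 ± 7.47 CPM in untreated cells at 24 h (log2 fold change -4.76 ± 0.10, adjusted p = 1.8e-25). Pnp, which breaks down inosine and guanosine, averaged 840 ± 26 CPM in LPS and 58 ± 5.27 CPM in untreated cells at 4 h (log2 fold change 3.85 ± 0.07, adjusted p = 1.7e-33). In Dex+LPS against LPS cells the list gave 6 higher and 4 lower of 14 tested (median log2 0.24, beside 0.00 for all genes) at 24 h and 5 higher and 6 lower of 14 tested (median log2 -0.03, beside -0.00 for all genes) at 4 h. Ada, which deaminates adenosine, averaged 4.15 ± 0.579 CPM in Dex+LPS and 1.45 ± 0.245 CPM in LPS cells at 24 h (log2 fold change 1.51 ± 0.21, adjusted p = 1.3e-07), and 8.19 ± 1.09 CPM in Dex+LPS and 2.32 ± 0.629 CPM in LPS cells at 4 h (log2 fold change 1.81 ± 0.18, adjusted p = 1.0e-10). Ahcy, which releases adenosine from S-adenosylhomocysteine, averaged 103 ± 10.5 CPM in Dex+LPS and 25.5 ± 1.1 CPM in LPS cells at 24 h (log2 fold change 2.02 ± 0.08, adjusted p = 4.4e-22). Of 8 genes listed around nucleotide release, LPS against untreated cells gave 3 higher and 1 lower of 6 tested (median log2 0.82, beside -0.02 for all genes) at 24 h and 3 higher and 2 lower of 6 tested (median log2 0.64, beside -0.07 for all genes) at 4 h. The list was not limited to release channels, and its 3 higher genes at each time were Gja1, Abcc4 and Xkr8. Gja1, the gap junction and hemichannel protein, averaged 104 ± 4.92 CPM in LPS and 3.79 ± 0.0908 CPM in untreated cells at 4 h (log2 fold change 4.77 ± 0.20, adjusted p = 1.2e-14), and Panx1, an ATP release channel, 5.16 ± 1.12 CPM in LPS and 14.2 ± 0.391 CPM in untreated cells (log2 fold change -1.46 ± 0.14, adjusted p = 4.9e-12). In Dex+LPS against LPS cells the release list gave 2 higher and 4 lower of 6 tested (median log2 -0.42, beside 0.00 for all genes) at 24 h and 2 higher and 2 lower of 6 tested (median log2 -0.09, beside -0.00 for all genes) at 4 h. Slc17a9, the vesicular nucleotide transporter, averaged 14.3 ± 2.53 CPM in Dex+LPS and 6.65 ± 0.191 CPM in LPS cells at 24 h (log2 fold change 1.10 ± 0.16, adjusted p = 6.3e-07).

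Around Cnr2, 13 of 19 endocannabinoid genes were tested, and Cnr1, the receptor of the nervous system, had 1 count over all libraries. Plaat1 and Plaat3 had no match among the symbols, so their counts were not looked up. LPS against untreated cells gave 6 higher and 5 lower of 13 tested (median log2 0.17, beside -0.02 for all genes) at 24 h and 3 higher and 7 lower of 13 tested (median log2 -0.59, beside -0.07 for all genes) at 4 h. Mgll, which degrades monoacylglycerol lipids, averaged 0.362 ± 0.362 CPM in LPS and 24.7 ± 1.88 CPM in untreated cells at 24 h (log2 fold change -6.02 ± 0.27, adjusted p = 1.2e-20). Daglb, which makes such lipids from diacylglycerol, averaged 19.9 ± 2.65 CPM in LPS and 100 ± 3.09 CPM in untreated cells at 4 h (log2 fold change -2.32 ± 0.08, adjusted p = 1.1e-24). The synthesis gene Daglb and the degradation gene Mgll were thus both lower with LPS, each at the time given. Gpr18, a receptor for lipids related to anandamide, averaged 25.4 ± 1.32 CPM in LPS and 1.39 ± 0.649 CPM in untreated cells at 24 h (log2 fold change 4.16 ± 0.21, adjusted p = 5.3e-17). In Dex+LPS against LPS cells the list gave 4 higher and 3 lower of 13 tested (median log2 0.09, beside 0.00 for all genes) at 24 h and 4 higher and 5 lower of 13 tested (median log2 0.04, beside -0.00 for all genes) at 4 h. Napepld, which makes anandamide, averaged 11.2 ± 1.11 CPM in Dex+LPS and 2.7 ± 0.21 CPM in LPS cells at 4 h (log2 fold change 2.05 ± 0.15, adjusted p = 5.4e-14). Ptgs2, an oxygenase that also takes endocannabinoids, averaged 3 ± 0.852 CPM in Dex+LPS and 95 ± 9.49 CPM in LPS cells at 24 h (log2 fold change -4.98 ± 0.17, adjusted p = 3.7e-15).

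Downstream of the receptors, 22 of 23 genes for G proteins, cyclic AMP and calcium signalling were tested. In LPS against untreated cells they gave 3 higher and 14 lower of 22 tested (median log2 -0.40, beside -0.02 for all genes) at 24 h and 10 higher and 10 lower of 22 tested (median log2 0.02, beside -0.07 for all genes) at 4 h. Pde4b, which breaks down cyclic AMP, averaged 148 ± 10.6 CPM in LPS and 11.8 ± 0.367 CPM in untreated cells at 24 h (log2 fold change 3.64 ± 0.09, adjusted p = 2.9e-26), and Adcy3, which makes it, 1.57 ± 0.288 CPM in LPS and 12.5 ± 1.5 CPM in untreated cells (log2 fold change -2.99 ± 0.18, adjusted p = 7.7e-17). In Dex+LPS against LPS cells the list gave 4 higher and 6 lower of 22 tested (median log2 -0.02, beside 0.00 for all genes) at 24 h and 8 higher and 10 lower of 22 tested (median log2 -0.20, beside -0.00 for all genes) at 4 h. Gna15, a Gq-family subunit of blood cells, averaged 13.8 ± 0.652 CPM in Dex+LPS and 46.8 ± 0.642 CPM in LPS cells at 4 h (log2 fold change -1.76 ± 0.09, adjusted p = 1.2e-18). All 12 genes of a list for the P2X7 and inflammasome axis were tested. In LPS against untreated cells they gave 9 higher and 3 lower of 12 tested (median log2 1.14, beside -0.02 for all genes) at 24 h and 10 higher and 1 lower of 12 tested (median log2 2.64, beside -0.07 for all genes) at 4 h, with P2rx7 itself lower at both times. In Dex+LPS against LPS cells they gave 2 higher and 6 lower of 12 tested (median log2 -0.24, beside 0.00 for all genes) at 24 h and 4 higher and 7 lower of 12 tested (median log2 -0.22, beside -0.00 for all genes) at 4 h. Il1b, the cytokine precursor the inflammasome processes, averaged 222 ± 24.7 CPM in Dex+LPS and 3195 ± 181 CPM in LPS cells at 24 h (log2 fold change -3.84 ± 0.09, adjusted p = 4.4e-21). Nlrp3, the sensor, averaged 1685 ± 133 CPM in Dex+LPS and 1169 ± 96.6 CPM in LPS cells at 4 h (log2 fold change 0.53 ± 0.06, adjusted p = 4.0e-09), and Pycard, its adaptor, 89.8 ± 7.08 CPM in Dex+LPS and 39.6 ± 1.86 CPM in LPS cells at 24 h (log2 fold change 1.18 ± 0.08, adjusted p = 8.7e-16). At 24 h Nlrp3 went the other way, with 169 ± 6.35 CPM in Dex+LPS and 218 ± 2.25 CPM in LPS cells (log2 fold change -0.37 ± 0.06, adjusted p = 9.5e-06). Il1b was lower in Dex+LPS than in LPS cells at 24 h and, with 1819 ± 38.2 CPM in Dex+LPS against 6554 ± 486 CPM in LPS cells, at 4 h (log2 fold change -1.85 ± 0.09, adjusted p = 2.3e-15).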

How the data were processed

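RNA was counted in 24 libraries of mouse bone marrow-derived macrophages (8 groups of 3). The deposited table holds whole-number counts per gene that the authors did not normalise, per the file headers, and 1 other column with each gene's exon length in bases. Counting used featureCounts 2.0.0 on read pairs, unstranded, over exons of GENCODE M29, without reads that match several places or several genes, per the file headers. STAR (no version) made the alignments and GRCm38 and mm10 are listed as builds, per the submitters' processing notes, while GENCODE M29 annotates GRCm39. Table positions are printed as deposited, and RefSeq windows are of GRCm38.p6. Library totals were 18326206 to 27908164 counts.

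Symbols came from GENCODE M21 by identifier (52081 of 55357 matched, 3276 did not, with 0.201 to 0.457% of a library's counts). In R 4.3.3, edgeR 4.0.16 (with limma 3.58.1) fitted all 24 libraries with a mean per group after filterByExpr (14985 genes tested, 14601 with counts below the filter) and TMM factors (0.679 to 1.18). The common biological coefficient of variation was 6.29%, with 16 residual degrees of freedom. Tests are two-sided quasi-likelihood F tests with Benjamini-Hochberg adjustment over all genes tested and a threshold of 0.05. Levels are CPM as mean ± SD of 3 libraries, and ± after a log2 value is an approximate standard error. The method was tested on simulated data. Few genes changed there, in a single group, so the choice of scaling was not tested by it. Alternatives were DESeq2 1.42.0 and its size factors, library sizes alone, no filter, a replicate block, only the groups compared, and each library left out.

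The members and the lists of other genes were chosen with earlier results of these data known, and support nothing by themselves. The text names all 10 members, the 2 genes most like each, and for each list a part of the genes with the 2 largest rises and 2 largest falls per comparison at 1 CPM or more in a group. Genes overlapping a member and the treatment targets Fkbp5 and Tnf are named too, and the level of 1 marker gene is not reported here. Nlrp3 at 24 h and the marker genes given with values fall outside this rule and were added after their values were seen.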

Additional observations from a re-analysis of the deposited data

Results flagged for a closer look

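These receptor results are listed because a treatment effect differed between 2 settings by a test of the difference itself (edgeR, adjusted p under 0.05). The log2 effect of dexamethasone with LPS minus that without LPS was -0.20 for P2rx4, -0.40 for P2ry2, -0.63 for P2ry6, -0.40 for P2ry13, -1.71 for P2ry14, 2.32 for Adora2a and 1.40 for Cnr2 at 24 h. At 4 h the same difference was -0.26 for P2rx4, -0.98 for P2ry2, -1.75 for P2ry6, -2.38 for P2ry14, 2.51 for Adora2a and -2.10 for Adora3.

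The log2 effect of LPS at 24 h minus that at 4 h was -1.27 for P2rx4, 0.48 for P2rx7, -0.76 for P2ry2, -1.13 for P2ry6, 1.38 for P2ry13, -1.65 for P2ry14, -2.54 for Adora2b, -1.78 for Adora3 and 5.29 for Cnr2. The log2 effect of dexamethasone under LPS at 24 h minus that at 4 h was 0.40 for P2rx4, 0.57 for P2rx7, 0.51 for P2ry2, 1.28 for P2ry6, 0.75 for P2ry13 and 2.66 for Adora3. Without LPS, the difference between the times was 0.34 for P2rx4, 0.36 for P2rx7, 1.46 for P2ry13, -0.74 for P2ry14, -0.98 for Adora2b and -0.63 for Cnr2.

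The Adora3 values rest in part on untreated library 1 at 4 h, which held 29 counts of this gene beside 2 and 3 in the other two. The P2ry13 interaction at 24 h (adjusted p = 0.045) is the closest of these to the threshold.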

How the results depend on the processing

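Of 837 receptor results under another setting, 810 kept their side of the threshold and, where called, their direction. A change of sign in an uncalled result was not counted as a change. Of the others, 14 lost the call, 12 gained it and 1 lost the call with a change of sign. That 1 is P2ry13 in LPS against untreated cells at 4 h, -0.02 (edgeR, adjusted p = 0.89) with library sizes alone. Adora3 (Dex against untreated, 4 h), Cnr2 (Dex+LPS against LPS, 4 h) and Adora2a (Dex against untreated, 24 h) fell below the filter when only those groups were fitted and gave no value there. With 1 library left out, 1106 of 1140 were unchanged in the same sense, 27 lost the call and 7 gained it. Counts of members moved by more than 1.5 times in 3 comparisons, and with a library left out 6 other counts moved by 1. The interaction at 4 h had 3 members with a positive difference with library sizes alone, against 1 with TMM. The interaction at 24 h had 3 with a negative difference with no filter and 3 to 5 with a library left out, against 5. The dexamethasone effect under LPS had 1 more negative at 24 h with library sizes alone, with no filter and with only the groups compared, and 0 to 1 with a library left out, against 0. The cause was not tested. Over all genes, library sizes alone in place of TMM gave 2434 higher and 9779 lower for LPS against untreated cells at 4 h (TMM 5118 and 5812), 5974 and 2365 for Dex+LPS against LPS cells at 4 h (TMM 3581 and 3807), and 2749 and 8724 for Dex+LPS against Dex cells at 4 h (TMM 5101 and 5328). They gave 5279 and 1566 for the interaction at 4 h (TMM 3122 and 2675), 7692 and 2573 for the LPS effect between times (TMM 4617 and 4568), and 4808 lower for the dexamethasone effect under LPS between times (TMM 2962). A replicate block changed no receptor call (140 of 140 kept). Same-numbered libraries did not deviate together more than others (84 pairs, r -0.20 to 0.18, 6 over 0.1, against -0.24 to 0.21 for other numbers). A weak pairing could be missed this way, and the labels do not say what the numbers mark. Few counts limit Adora2a without LPS, Adora3 throughout and Cnr2 with LPS at 4 h.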
